A study of Mus musculus with 2 samples.

Results

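The cells described here carried an unusually large share of mitochondrial transcripts in differentiated urothelial organoids. They were chosen from all deposited barcodes of the differentiated library as those with over 800 detected genes and over 12% of their UMIs from the mitochondrial genome. A UMI, or unique molecular identifier, marks 1 captured RNA molecule. Of the 6975 barcodes in that library, 5194 had over 800 genes, and 298 of these exceeded 12% mitochondrial UMIs. The other 4896 gene-rich cells of the same library, with at most 12%, served as the comparison. The high-mitochondrial cells were thus 5.74% of the gene-rich cells, with an exact binomial 95% interval of 5.12 to 6.40%. In the deposited table they are cells that the study's own quality filter would leave out.

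Organoids were grown from the normal urothelium of wild-type (WT) C57BL/6 mice aged 8 to 10 weeks, and dissociated cells were profiled by droplet single-cell RNA sequencing that reads the 3′ ends of polyadenylated RNA. Proliferative organoids (P) were kept in complete medium, and for differentiated organoids (D) the growth factors EGF, WNT3A and RSPO1, the BMP antagonist Noggin and LY2157299, which blocks TGF-β receptor signalling, were withdrawn. Each condition was 1 library, so that no difference between cells here has a replicate check, and neither p-values nor standard errors were computed. Intervals are 95% intervals from the counts and cover counting error only.

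The mitochondrial genome encodes a small set of respiratory chain subunits. Most of its messengers carry poly(A) tails and are therefore captured together with nuclear ones. All other mitochondrial proteins, the mitochondrial ribosome included, are encoded in the nucleus and translated in the cytosol. A high mitochondrial share is widely used to filter single-cell data, because cytosolic RNA can leave a damaged cell while RNA enclosed in mitochondria or held in the nucleus stays, and because cells rich in mitochondria also have it. Urothelium is layered, with basal cells on the basement membrane, intermediate cells above them, and luminal cells that make uroplakins, the plaque proteins of the apical membrane.

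The share of mitochondrial UMIs, which the rule used, had a median of 16.9% in the high-mitochondrial cells and reached 36.7%. In the other gene-rich cells the median was 6.76%. The 5 cells just inside the threshold had between 12.001 and 12.031% and the 5 just outside between 11.930 and 11.988%. These levels describe the choice of cells and support nothing further.

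Depth was lower in the high-mitochondrial cells. Their median was 2348.5 non-mitochondrial UMIs and 1255 genes per cell, against 2998 UMIs and 1346.5 genes in the other cells. Together they held 854169 non-mitochondrial UMIs and the other cells 18857138. Only 10 barcode sequences were shared by the 2 libraries, and 0 of these were among the high-mitochondrial cells. In P, 94 of 6912 gene-rich cells passed 12% (1.36%, interval 1.10 to 1.66%). As a check of the labels, the 4896 other gene-rich cells of D held 0.134% uroplakin UMIs and the 6818 of P held 0.00218%. All expression values below are relative to non-mitochondrial UMIs, so the mitochondrial share itself does not enter them.

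Among the genes with the largest excess in the high-mitochondrial cells was Gm20594, a short single-exon gene model on chromosome 6 that is annotated as protein coding. It is shown because its sequence resembles mt-Rnr2, the large ribosomal RNA of mitochondria, which is not among the genes of the count table. BLAST aligned the 449-base Gm20594 transcript to mt-Rnr2 over 435 columns at 88.5% identity. Of the 5345 nuclear genes compared below, it was the only 1 whose transcript matched a mitochondrial transcript at 80% identity or more over at least 100 bases. The stretch printed here, 5′ to 3′, lies at chr6:79818082-79818231 (plus strand, exonic) for Gm20594 and at chrM:1901-2050 (plus strand) for mt-Rnr2 in GRCm38. Capitals mark the 13 of 150 bases at which the pair differs.
Gm20594: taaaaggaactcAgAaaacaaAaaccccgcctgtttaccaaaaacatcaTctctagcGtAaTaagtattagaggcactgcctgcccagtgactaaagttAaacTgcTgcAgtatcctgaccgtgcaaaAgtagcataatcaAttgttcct
mt-Rnr2: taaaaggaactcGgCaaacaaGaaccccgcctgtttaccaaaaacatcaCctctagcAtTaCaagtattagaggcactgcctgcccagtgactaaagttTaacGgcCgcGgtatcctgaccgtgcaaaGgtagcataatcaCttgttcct
Gm20594 had 402 UMIs in 192 of the 298 high-mitochondrial cells and 1511 UMIs in the other cells, which is 471 against 80.1 CPM, the UMIs scaled to 1000000 non-mitochondrial UMIs. Its log2 ratio was 2.56 (interval 2.39 to 2.71), and in P it was 2.30 (2.04 to 2.55). Reads of this gene model and of mitochondrial ribosomal RNA may not be separable in the counts, so its level is uncertain.

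Genes were compared as the ratio of summed UMIs, high-mitochondrial over other gene-rich cells. A gene entered the comparison when at least 20 UMIs were expected in the high-mitochondrial cells from its level in both groups together, and was counted as higher or lower at a 2-fold ratio. Of 5345 genes that entered, 448 were at least 2-fold higher (8.38%) and 59 at least 2-fold lower (1.1%). The median over all genes that entered was 0.15 on the log2 scale. The balance of higher and lower genes depended on the scale: with ribosomal protein genes also left out of the total it was 222 higher and 227 lower, and with the median gene set to no change it was 262 and 180. Without Malat1 in the total the counts were 731 and 25. When the other cells were weighted to match the depths of the high-mitochondrial cells, 373 genes were higher and 59 lower.

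Nuclear long noncoding RNAs were higher in the high-mitochondrial cells. Malat1 (chr19:5795690-5802672, minus strand), an abundant RNA held in nuclear speckles, took 16.03% of non-mitochondrial UMIs in the high-mitochondrial cells and 6.27% in the other cells, a log2 ratio of 1.35 (1.35 to 1.36). Cell by cell, its share had a median of 14.1% and ran from 0.194 to 45.4% in the high-mitochondrial cells, against a median of 6.50% in the others. Of the 298 cells, 249 lay above the median of the other cells and 198 above their 90th percentile, while 15 lay below their 10th percentile. The groups therefore overlapped, and a minority of the high-mitochondrial cells had ordinary or low Malat1.

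Of 10 nuclear long noncoding RNAs that were listed and found in the table, 8 entered. Of the 8, 6 were at least 2-fold higher, with a median log2 ratio of 1.17, against 8.38% of all genes that entered. Neat1, the scaffold of paraspeckles, stood at 1290 against 489 CPM (log2 ratio 1.40). Kcnq1ot1, an imprinted transcript that acts at chromatin, stood at 495 against 202 CPM (1.30). Gm42418 (1.12), Gm26917 (1.17) and AY036118 (0.97) lie next to each other on chromosome 17, between positions 39843013 and 39848788. AY036118 is annotated on the minus strand inside Gm42418 on the plus strand, so their counts may not be independent. Whether the counts of these gene models come from nuclear long noncoding RNA was not tested.

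Ribosomal protein genes showed the opposite. Summed over the 85 genes found, they took 12.6% of non-mitochondrial UMIs in the high-mitochondrial cells and 23.04% in the others, a log2 ratio of -0.87. Per cell, the median was 7.23% against 23.3%, and 221 of the 298 cells lay below the 10th percentile of the other cells. Of the 80 genes that entered, 79 had a ratio below 0 and 76 had an interval wholly below 0. Of the 80, 4 were at least 2-fold lower, against 1.1% of all genes that entered. The 4 were Rpl22 (-1.04), Rpl35 (-1.04), Rpl12 (-1.02) and Rps2 (-1.01). The shortfall was therefore shared almost evenly over the list and close to the 2-fold limit. Many of these genes have processed pseudogenes, so single values are less certain than the sum.

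**Figure D1:**
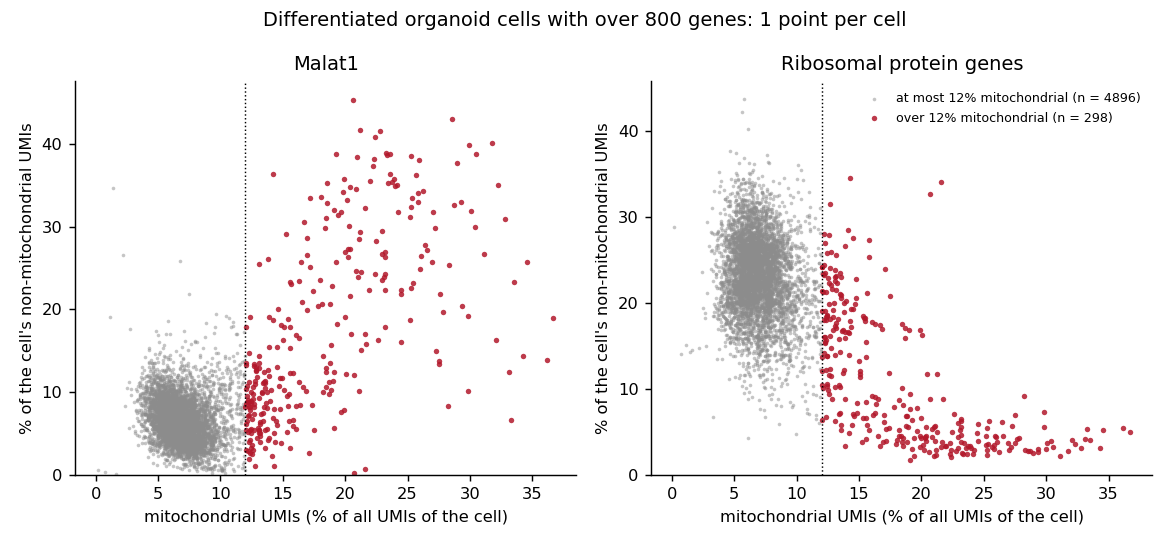
Share of non-mitochondrial UMIs taken by Malat1 (left) and by ribosomal protein genes (right) in each gene-rich cell of the differentiated library, against the cell's mitochondrial share. Each point is 1 cell, red for the 298 high-mitochondrial cells and grey for the 4896 others, and the dotted line is the 12% limit. For ribosomal protein genes, 67 of the 136 red cells at 12 to 16% and 154 of the 162 above 16% lie below the 10th percentile of the grey cells.

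The high-mitochondrial cells differed strongly among themselves, in step with their mitochondrial share. They were divided at 16%, a value picked after the levels by mitochondrial share had been seen, which gave 136 cells at 12 to 16% and 162 cells above 16%, with median depths of 2727 and 2111 non-mitochondrial UMIs. Each set was compared with the same 4896 other cells. The median cell had 8.73% Malat1 and 17.2% ribosomal protein UMIs at 12 to 16%, and 24.96% Malat1 and 4.40% ribosomal protein UMIs above 16%. Of the 5345 genes, 88 were at least 2-fold higher and 36 lower in the cells at 12 to 16%. Above 16% the counts were 1034 higher and 782 lower. Most of the difference measured over all 298 cells was thus carried by those above 16%.

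Along bins of mitochondrial share, the summed ribosomal protein level lay between 21.9 and 23.3% in all 5 bins below the limit. It then stood at 18.2% in the 97 cells at 12 to 14%, 17.3% at 14 to 16%, 9.34% at 16 to 20%, 5.61% at 20 to 25% and 4.06% in the 49 cells above 25%. Malat1 was lower from 8.68% in cells under 4% to 5.14% at 8 to 10%, and then stood at 6.52% at 10 to 12%, 8.30% at 12 to 14%, 10.3% at 14 to 16%, 19.3% at 16 to 20% and 27.5% at 20 to 25%. Above 25% it was 26.5%, no longer higher. The median depth was also lower along these bins, from 3165 non-mitochondrial UMIs at 10 to 12% to 1953 above 25%, and its part in these levels was not tested.

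**Figure D2:**
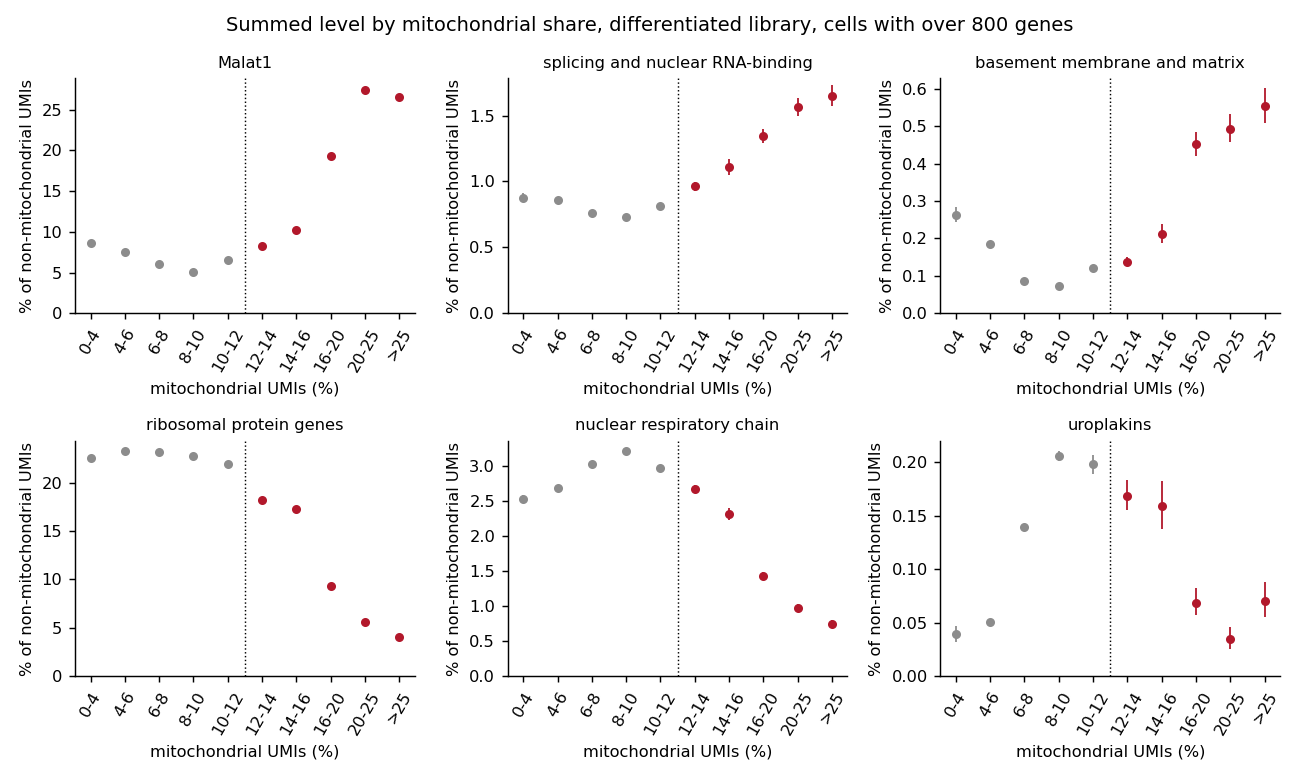
Summed level of Malat1 and 5 gene lists, as % of non-mitochondrial UMIs, by bins of mitochondrial share in gene-rich cells of the differentiated library. Points are sums over the cells of a bin, bars are exact 95% counting intervals, red bins lie above the 12% limit. Ribosomal protein and nuclear respiratory chain genes are lower from bin to bin above the limit, while basement membrane genes are high at both ends.

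Nuclear genes for mitochondrial proteins did not share the excess of the mitochondrial genome. For the counts that follow, 8.38% of all genes that entered were at least 2-fold higher and 1.1% at least 2-fold lower. Respiratory chain genes encoded in the nucleus took 1.87% of non-mitochondrial UMIs in the high-mitochondrial cells and 2.97% in the others. Their median log2 ratio was -0.66, with 0 of 76 genes at least 2-fold higher, 2 at least 2-fold lower and 69 with an interval wholly below 0. The 2 were Uqcrfs1, the Rieske iron-sulphur subunit of complex III (57.4 against 146 CPM, -1.33), and Atp5o, a stalk subunit of ATP synthase (148 against 312 CPM, -1.08), whose symbol is also carried by an overlapping gene model with 0 UMIs in these cells. Genes of the mitochondrial ribosome had a median of -0.65 over 41 genes, 5 of them at least 2-fold lower, with Mrps28 (-1.28) and Mrpl34 (-1.19) the furthest down. Those for mitochondrial import, chaperones and proteases had a median of -0.43 over 22 genes, with 0 past the 2-fold limit. Of the genes that copy and transcribe the mitochondrial genome, 4 of 17 entered, with a median of -0.50 while the summed level of all 17 had a ratio of 0.14. Tfam, which packages that genome, stood at 23.4 against 37.3 CPM (-0.64, interval -1.39 to -0.03). Genes of mitophagy and mitochondrial dynamics had a median of -0.12 over 14 genes, again with 0 past the limit, and of 0.04 without Malat1 in the total. Above 16% mitochondrial share, 60 of the 76 respiratory chain genes and 32 of the 41 mitochondrial ribosome genes were at least 2-fold lower. Over all genes the count there was 782 of 5345.

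Within the mitochondrial UMIs, the shares of the 13 genes differed by log2 ratios of -0.27 to 0.40. The leading genes were the same, with mt-Atp6 at 19.2% of mitochondrial UMIs in the high-mitochondrial cells and 17.7% in the others, followed by mt-Co3 at 18.4 and 16.96%. The furthest apart downwards was mt-Co1, a subunit of cytochrome oxidase, at 11.2 and 13.5%. The furthest apart upwards was mt-Nd6, the gene read from the other strand, at 0.144 and 0.109%, resting on 270 UMIs in the high-mitochondrial cells. In P the same 2 genes stood at -0.07 and -0.80, so the direction of mt-Nd6 was opposite there.

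Genes of splicing and nuclear RNA binding were higher. The median log2 ratio was 0.74 over 34 genes, of which 10 were at least 2-fold higher, 0 lower and 27 had an interval wholly above 0. Over all genes that entered, 8.38% were at least 2-fold higher. Ddx17, an RNA helicase, stood at 334 against 114 CPM (1.55), Clk1, a kinase of splicing factors, at 480 against 180 CPM (1.42), and Luc7l2 at 520 against 206 CPM (1.34). Of the 34, 4 had a ratio below 0, of which 1 had an interval wholly below 0. This was Rbm3, a cold-induced RNA-binding protein with a short transcript, at 273 against 445 CPM (-0.70). Arglu1 (1.81) and Ccnl2 (1.79), which also act in nuclear RNA processing, were among the 15 genes furthest up.

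**Figure D3:**
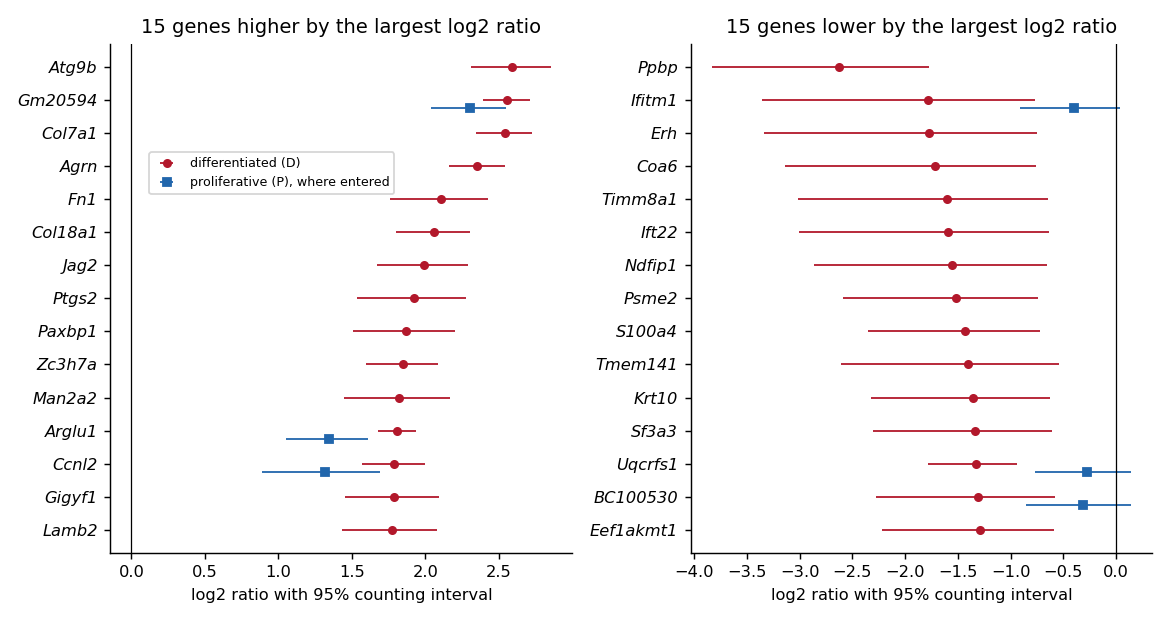
The 15 genes with the highest and the 15 with the lowest log2 ratio, high-mitochondrial over other gene-rich cells. Red points are the differentiated library and blue squares the proliferative library where the gene entered, with bars for 95% counting intervals. Ratios run from 1.77 to 2.59 on the left, with 3 genes that also entered in P, and from -2.63 to -1.29 on the right, with wide intervals.

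The other genes of the upper 15 were led by Atg9b, a membrane protein of autophagy, with 144 UMIs in 95 cells (169 against 28.1 CPM, log2 ratio 2.59). Basement membrane genes followed. Col7a1, the anchoring fibril collagen (chr9:108953586-108984875, plus strand), stood at 337 against 58.1 CPM (2.54). Agrn, a heparan sulphate proteoglycan, stood at 328 against 64.3 CPM (2.35). Fn1, fibronectin, stood at 105 against 24.6 CPM (2.10), Col18a1 at 181 against 43.6 CPM (2.06) and Lamb2, a laminin chain, at 109 against 32.1 CPM (1.77). Jag2, a Notch ligand, stood at 123 against 31.0 CPM (1.99), and Ptgs2, the inducible cyclooxygenase, at 85.5 against 22.6 CPM (1.92). Paxbp1, Zc3h7a, Man2a2 and Gigyf1 completed the set, with ratios of 1.79 to 1.87. Each of the 15 was found in 52 to 229 of the 298 cells.

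Because matrix genes stood out among those 15, a list of 25 basement membrane and matrix genes and a list of 13 integrin and hemidesmosome genes were added after the leading genes had been seen, so their counts are no independent evidence. Of the 13 matrix genes that entered, 11 were at least 2-fold higher, with a median log2 ratio of 1.41, and Sparc was the only 1 below 0 (-0.27, interval -0.90 to 0.26). Lama5 (1.47), Col17a1 (1.41), Thbs1 (1.38) and Lamb3 (1.36) were among them. Of 11 integrin and hemidesmosome genes, 2 were at least 2-fold higher, Dst (1.05) and Itga6 (1.01), with a median of 0.83. Over all genes that entered, 8.38% were at least 2-fold higher. In the bin of genes with the longest exons, described below, 23.8% were. In the cells at 12 to 16% mitochondrial share the medians of these lists were 0.49 and 0.17, and above 16% they were 1.99 and 1.31. The summed matrix level was also high in gene-rich cells under 4% mitochondrial share, at 0.264%, against 0.0733% at 8 to 10% and 0.554% above 25%.

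Cell identity genes differed among the high-mitochondrial cells. The 9 basal markers had a median of 0.18 with 0 at least 2-fold higher in the cells at 12 to 16%, and of 1.31 with 6 at least 2-fold higher above 16%. Over all 5345 genes, 88 were at least 2-fold higher at 12 to 16% and 1034 above 16%, so the base also differed. Intermediate markers had medians of -0.07 and -0.73 in these sets. Over all 298 cells the basal markers split by kind. Col17a1, Lamb3 and Itga6 were at least 2-fold higher, and Cd44 (0.99), Itgb4 (0.94) and Trp63, the basal transcription factor (0.82), were also above 0. Col17a1, Lamb3 and Itga6 are also counted in the matrix and integrin lists above, so they are not separate results. The 3 basal keratins were below 0, with Krt5 at 3108 against 4257 CPM (-0.45), Krt15 at 5734 against 7908 CPM (-0.46) and Krt14 at 2868 against 4023 CPM (-0.49). The median of the list was thus 0.94 while the summed level was lower, with a log2 ratio of -0.34. Intermediate cell markers had a median of -0.37 over 11 genes, 0 of them past the 2-fold limit, with Krt19 at -0.46, Krt8 at -0.37 and Psca at -0.72.

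Uroplakins were detected in many of these cells. With each cell thinned to 1300 non-mitochondrial UMIs, 132 of 283 high-mitochondrial cells had a uroplakin UMI (46.6%, interval 40.7 to 52.6%), against 2112 of 4889 other cells (43.2%, 41.8 to 44.6%), leaving out 15 and 7 shallower cells. Unthinned, the shares were 62.8 and 58.2%. As a measure of background, other gene-rich cells with at least 2 UMIs of Acta2, the contractile basal actin, had a thinned share of 12.6%, with a median depth of 3987 UMIs. The intervals of the groups overlapped over all 298 cells, which is not a test of a difference, and the direction depended on the limit. With the limit at 10% the share was 52.7% (48.2 to 57.1%) against 42.1% (40.7 to 43.5%), and at 15% it was 33.1% (26.1 to 40.8%) against 43.8% (42.4 to 45.1%), so that the direction turned. At 20% it was 33.0% (23.9 to 43.1%) against 43.8% (42.4 to 45.1%), again with overlapping intervals. At the 12% limit with at least 2 uroplakin UMIs required, the share was 21.9% against 25.6%, with overlapping intervals. Averaged over all possible thinnings, the share was 60.1% (51.3 to 68.5%) in the cells at 12 to 16% and 34.4% (26.8 to 42.6%) in those above 16%. In summed level, Upk1a stood at 455 against 513 CPM (-0.17), Upk1b at 350 against 406 CPM (-0.21), Upk3a at 273 against 365 CPM (-0.42) and Upk2 at 44.5 against 40.3 CPM (0.16, interval -0.37 to 0.61, and -0.02 with ribosomal protein genes left out of the total). With depth matched, the ratios were 0.02 for Upk1a, 0.05 for Upk1b and -0.09 for Upk3a, so that the sign turned for the former pair. By bins, the summed uroplakin level was 0.0392% in cells under 4% mitochondrial share, 0.0503% at 4 to 6% and 0.206% at 8 to 10%, and then 0.198% of non-mitochondrial UMIs at 10 to 12%, 0.169% at 12 to 14% and 0.0348% at 20 to 25%, so that it was low at both ends.

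**Figure D4:**
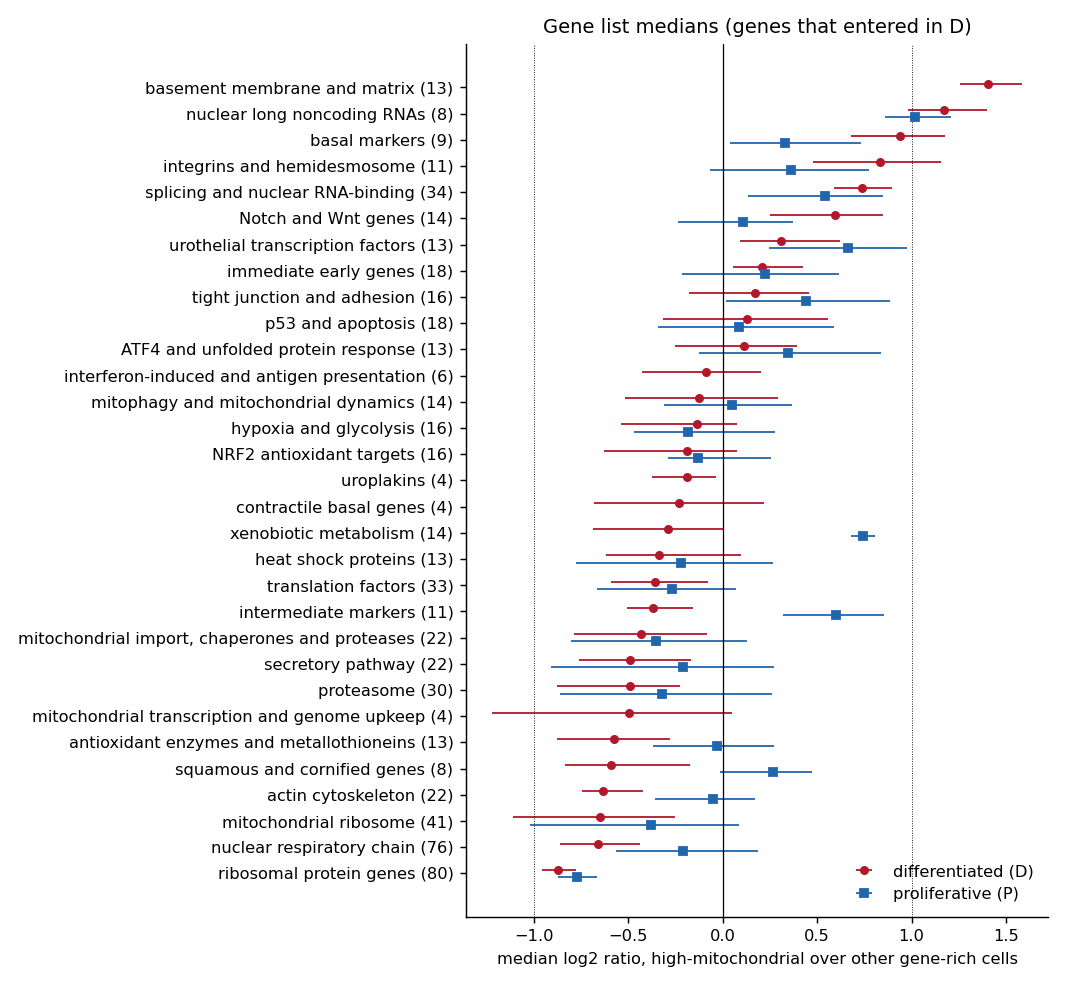
Median log2 ratio of each gene list, high-mitochondrial over other gene-rich cells, in the differentiated (red) and proliferative (blue) libraries, with the number of genes that entered in D in brackets. Bars run from the median of the genes' lower counting bounds to the median of their upper bounds, and lists with under 4 genes entered are not drawn. In D the lists range from -0.87 for ribosomal protein genes to 1.41 for basement membrane and matrix genes.

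Markers of other cell types were near 0. Of the 31 fibroblast, leukocyte, endothelial and erythroid markers, Dcn had 29 UMIs in the high-mitochondrial cells and Laptm5 18, and every other had at most 4. Ptprc, Col1a2, Pdgfra, Cdh5 and the globin genes had 0. Dcn stood lower than in the other cells (log2 ratio -0.92), and both genes are also found in the other gene-rich cells, with 1234 and 400 UMIs.

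Most lists of other pathways held few genes past the 2-fold limit. Over all genes that entered, 8.38% were at least 2-fold higher and 1.1% at least 2-fold lower. Actin cytoskeleton genes had a median of -0.64 over 22 genes, secretory pathway genes -0.49 over 22, proteasome genes -0.49 over 30 and translation factors -0.36 over 33. Within these 4 lists, only Sec61b, a subunit of the translocon, was 2-fold lower (187 against 393 CPM, -1.07), and 0 others passed the limit. Antioxidant enzymes and metallothioneins had a median of -0.58 over 13 genes and squamous genes -0.59 over 8, of which Krt10 was 2-fold lower (15.2 against 40.4 CPM, -1.36). NRF2 targets had a median of -0.19, xenobiotic enzymes of -0.29 and heat shock proteins of -0.34, while their summed levels had ratios of -0.55, -0.46 and -0.47. Hypoxia and glycolysis genes (-0.13) and interferon and antigen presentation genes (-0.09) were above 0 without Malat1 in the total (0.02 and 0.07), and of these only Hk2, a hexokinase, was at least 2-fold higher (1.03). The p53 and apoptosis genes had a median of 0.13 over 18 genes and the ATF4 and unfolded protein response genes 0.11 over 13, both with 0 genes past the limit and both below 0 with ribosomal protein genes left out of the total (-0.05 and -0.07). Immediate early genes stood at 0.21 over 18, with Nr4a1 at 85.5 against 32.5 CPM (1.40). Notch and Wnt genes stood at 0.59 over 14, of which Jag2, Notch2 (1.18) and Jag1 (1.15) were at least 2-fold higher. Tight junction genes stood at 0.17 over 16, and at -0.01 with ribosomal protein genes left out of the total. Contractile basal genes stood at -0.23 over 4, while the summed level of the list had a ratio of 0.15. Of 16 proliferation genes only 1 entered. The list of urothelial transcription factors, which also holds the histone methyltransferase gene Kmt2c, stood at 0.31 over 13. Within it, Kmt2c (1.22) and Tfap2a (1.15) were at least 2-fold higher. Pparg, a regulator of luminal differentiation, was 2-fold lower on 14 UMIs (16.4 against 35.3 CPM, -1.06, interval -1.98 to -0.35).

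The 15 genes with the lowest ratio had 6 to 49 UMIs in the high-mitochondrial cells, so their counting intervals were wide. Of the 15, 8 also had a ratio below 0 in P, where the median over all genes that entered was 0.01. In P 3 of the 15 entered, and 0 of these were 2-fold lower there. Of the 15 genes furthest up, by contrast, 15 had a ratio above 0 in P. Ppbp, a platelet-type chemokine, had 9 UMIs against 1294 in the other cells (10.5 against 68.6 CPM, log2 ratio -2.63, interval -3.84 to -1.77). In P, where Ppbp did not enter, its ratio was opposite, at 1.10 (0.54 to 1.57) on 34 UMIs. Ifitm1 stood at -1.79, Erh at -1.77, Coa6, a factor of cytochrome oxidase assembly, at -1.72 and Timm8a1, a mitochondrial import chaperone, at -1.60. Ift22, Ndfip1, Psme2, S100a4, Tmem141, Krt10, Sf3a3, Uqcrfs1, BC100530 and Eef1akmt1 made up the rest. BC100530 belongs to a family of near-identical genes, so its value is uncertain.

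The genes that differed also differed in length. The annotated exons of the 448 higher genes covered a median of 9192 bases, those of all 5345 genes 4611 and those of the 59 lower genes 1570. Over 5 bins of equal gene number by exon length, the median log2 ratio was -0.47, -0.13, 0.18, 0.45 and 0.72 from the shortest to the longest. The share at least 2-fold higher was 0.562% in the bin of shortest genes and 23.8% in that of the longest. Across the 5345 genes, which come from the same cells and are not independent, Spearman's rho between ratio and exon length was 0.68. Without ribosomal protein genes the medians ran from -0.45 to 0.72. Gm20594, at 449 bases, and the long collagen genes stand at opposite ends of this scale. In P the medians over all genes ran from -0.26 to 0.61, and without ribosomal protein genes from -0.19 to 0.61.

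**Figure D5:**
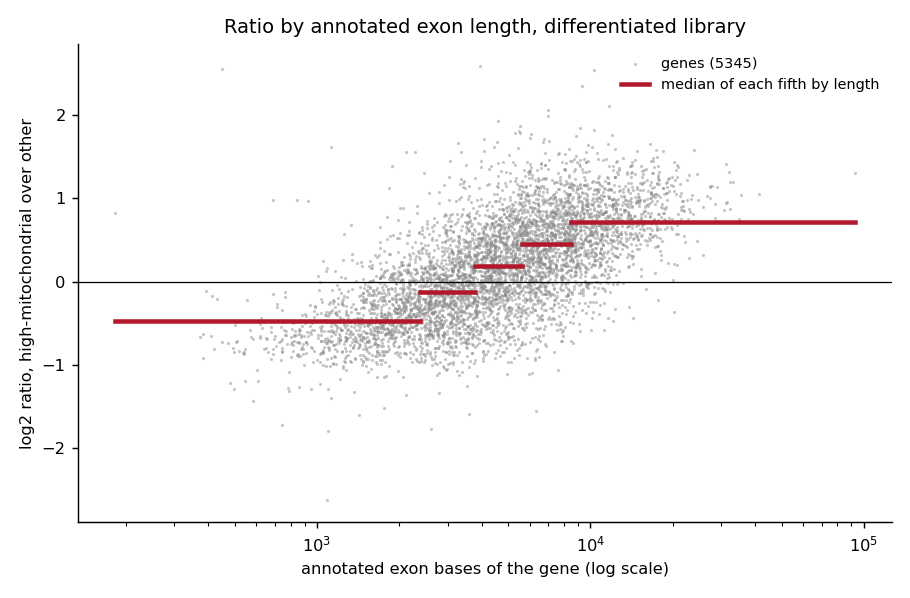
Log2 ratio, high-mitochondrial over other gene-rich cells of the differentiated library, against the annotated exon bases of each of 5345 genes (log axis). Red bars are medians of 5 bins of equal gene number by length, from -0.47 in the shortest to 0.72 in the longest.

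The same rule was applied to the proliferative library, which is another condition and not a replicate. There, 94 high-mitochondrial cells with 277725 non-mitochondrial UMIs were compared with 6818 others. Of 1437 genes that entered, 86 were at least 2-fold higher (5.98%) and 18 at least 2-fold lower (1.25%). Malat1 took 10.2% of non-mitochondrial UMIs against 4.90%, and ribosomal protein genes 23.5% against 39.8%. Gm42418 was further up than in D, at 32590 against 5128 CPM (log2 ratio 2.67 in P and 1.12 in D). The median was 1.02 for long noncoding RNAs, -0.77 for ribosomal protein genes, 0.54 for splicing genes and -0.21 for nuclear respiratory chain genes.

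A total of 1420 genes entered in D as well as in P. Of these, 53 reached a 2-fold excess in D and 84 in P. The 27 found in both were 50.9% of the D list and 32.1% of the P list, where 5.92% of the 1420 were higher in P. Of the lower genes, 19 in D and 17 in P, 1 was shared (5.26 and 5.88%), where 1.20% of the 1420 were lower in P. Of the 19, 18 had a ratio below 0 in P. Across the 1420 genes the ratios had Pearson's r of 0.72 and Spearman's rho of 0.72. Some lists lay on opposite sides of 0 in the libraries. Intermediate markers had a median of 0.60 in P, with 11 of 11 above 0, against -0.37 in D, with 10 of 11 below. By bins of P, their summed level was 1.33% at 12 to 14% and 1.56% at 14 to 16% mitochondrial share, but 0.839% at 16 to 20%, 0.817% at 20 to 25% and 0.710% above 25%, against 0.884% in all 6818 other cells. The excess in P thus lay in the cells near the limit, and the 3 bins above 16% lay below the others, of which only that above 25% had its counting interval (0.599 to 0.835%) wholly below. Krt4 was at 1.65 in P and -0.14 in D. Xenobiotic enzymes stood at 0.74 over 5 genes in P, against -0.29 over 14 in D. Squamous genes stood at 0.27 over 6 in P, against -0.59 over 8 in D. The summed xenobiotic level in P was 1.79% at 12 to 14% and 1.81% at 14 to 16% mitochondrial share. In the 3 bins above 16% it was 0.665, 0.897 and 0.734%, against 0.997% in the other cells. Uroplakins had 54 UMIs in the 94 cells and 548 in the 6818 others, a summed log2 ratio of 3.15 (2.72 to 3.56). Of the 54 UMIs, 41 were in the 39 cells at 12 to 14% (0.0310%), and 1 was in the cells above 20%. None of these differences between the libraries was tested.

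The most similar other barcodes were the 1608 in D with over 12% mitochondrial UMIs and at most 800 genes. They had a median of 599 non-mitochondrial UMIs and a mitochondrial share of 26.3%. Against the same 4896 gene-rich cells, 6124 genes entered, of which 1090 were at least 2-fold higher (17.8%) and 1050 at least 2-fold lower (17.1%). As the comparison cells are shared, values are only set side by side. The median log2 ratio of ribosomal protein genes was -2.24 in these barcodes, -1.79 in the gene-rich cells above 16% and -0.36 in those at 12 to 16%. For nuclear respiratory chain genes the values were -1.78, -1.47 and -0.21, for long noncoding RNAs 1.66, 1.63 and 0.71, and for uroplakins -1.52, -1.49 and 0.32. Basement membrane genes stood at 1.64, 1.99 and 0.49. Basement membrane genes thus differed in order from the other lists just given, but they were not alone in this. Basal markers stood at 0.95, 1.31 and 0.18, and integrin and hemidesmosome genes at 0.95, 1.31 and 0.17. The spacing also differed between lists. For NRF2 targets the values were -1.19, -0.56 and -0.11 and for mitophagy genes -0.79, -0.41 and -0.08. In both, the cells above 16% lay nearer to those at 12 to 16%.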

How the data were processed

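Droplet single-cell RNA sequencing (10x Genomics 3′ chemistry, v3) gave 1 library of proliferative and 1 of differentiated organoids. The deposited matrices hold raw UMI counts per gene and barcode, which the authors made with Cell Ranger 3.0.2 (bcl2fastq 2.19.0) on GRCm38/mm10. The 298 cells, the gene lists and the comparisons were chosen with earlier results of these data known, and 2 lists were added after the leading genes had been seen. Mitochondrial genes were the 13 with symbols starting mt-. UMIs were summed per group and divided by non-mitochondrial UMIs. Ratios carry exact conditional binomial intervals, and shares Clopper-Pearson intervals, at 95%. The named genes are list members and the 15 largest log2 ratios in each direction, with 0.5 UMI added to each sum. Rbm3, Sparc and the other single genes described come from these sets. With 1 library per condition no test was made. Positions, strands and exon lengths came from GENCODE M21 (GRCm38), and mitochondrial matches from BLAST 2.17.0. Doublets were kept, because Scrublet (scanpy 1.11.5) marked 0 of 5194 cells and so had not worked. Of the 298 cells, 7 were among the 5% with most UMIs. The comparison was tested on simulated counts. Other thresholds, scalings, depth matching and minimum counts were tried. Computation used Python 3.11.15, NumPy 2.4.6, SciPy 1.17.1 and pandas 2.3.3.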

Additional observations from a re-analysis of the deposited data

Results flagged for a closer look

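Intermediate cell markers lay on opposite sides of 0 in the 2 libraries. Their median log2 ratio, high-mitochondrial over other gene-rich cells, was -0.37 in the differentiated library and 0.60 in the proliferative library, over the same 11 genes. The interval taken as the median of the genes' counting bounds was wholly below 0 in the former and wholly above 0 in the latter. In the proliferative library the summed level was above that of the other cells (0.884%) at 12 to 16% mitochondrial share (1.33 and 1.56% in 2 bins), and slightly below it above 16% (0.839, 0.817 and 0.710%), so the excess there lay in the cells near the limit. Each side is 1 library, and the difference was not tested.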

How the results depend on the processing

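No paired analysis was possible because each condition was 1 library and no test was made. Scrublet gave no value, as it marked 0 cells, and genes under 20 expected UMIs entered only where a minimum of 10 was tried. Leaving Malat1 out of the total and matching on Acta2 were chosen after seeing the data. Of the lists that are not main results, 302 medians stayed between the medians of their genes' counting bounds, and 47 did not. These bounds are not the counting error of a median. Of the values of named genes, 509 stayed within their counting interval and 163 did not. Another 5 whose interval had excluded 0, all of uroplakins and given here, changed sign. The main results moved more often. Of their list medians 44 stayed within the bounds, 32 did not and 2 changed sign. Of their counts and shares, 15 stayed near the main value and 29 moved. The cause of these changes was not tested.

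The mitochondrial threshold had the largest effect. At 10%, 15% and 20% there were 527, 181 and 106 cells (657 at 12% with over 500 genes). At 10%, 7726 genes entered, of which 152 were higher (1.97%) and 13 lower (0.168%). At 15%, 3364 entered, with 450 higher (13.4%) and 535 lower (15.9%). At 20%, 1711 entered, with 208 higher (12.2%) and 626 lower (36.6%). In the same order, the median log2 ratio was -0.28, -1.23 and -1.81 for respiratory chain genes, -0.42, -1.56 and -2.25 for ribosomal protein genes, 0.82, 1.54 and 1.85 for long noncoding RNAs, 0.41, 0.94 and 1.01 for splicing genes, 0.55, 1.27 and 1.27 for basal markers and 0.32, -0.72 and -1.66 for uroplakins, so that uroplakins were above 0 at 10%, with Upk1a at 0.32, Upk1b at 0.18 and Upk3a at 0.27. The share of cells with a uroplakin UMI was 52.7, 33.1 and 33.0%, against 42.1, 43.8 and 43.8% in the comparison cells. At 12% it was 62.8% without thinning, 37.9% with cells thinned to 650 UMIs and 21.9% with at least 2 UMIs required.

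With over 500 genes, 6566 genes entered, of which 765 were higher (11.7%) and 242 lower (3.69%). The medians were then -0.91 for respiratory chain genes, -1.13 for ribosomal protein genes, 1.42 for long noncoding RNAs and -0.43 for uroplakins. With over 1000 genes ribosomal protein genes stood at -0.78. A minimum of 10 expected UMIs gave 819 higher (10.8%) and 97 lower genes (1.28%) of 7569. A minimum of 50 gave 120 higher (4.90%) and 24 lower genes (0.980%) of 2450. Ribosomal protein genes left out of the total gave 222 higher and 227 lower of 5345, with medians of -1.05 for ribosomal protein and 0.56 for splicing genes. Median-ratio scaling gave 262 and 180, with ribosomal protein genes at -1.02. Malat1 left out gave 731 and 25, with ribosomal protein genes at -0.71, splicing genes at 0.90 and uroplakins at -0.033. The mean of per-cell shares gave 193 lower genes, with ribosomal protein genes at -1.08 and uroplakins at -0.027. Without the 5% of cells with most UMIs, 112 of 4994 genes were lower (2.24%) and ribosomal protein genes stood at -0.98. Matched on depth, basal markers stood at 0.65 and uroplakins at 0.036, with Upk1a at 0.024 and Upk1b at 0.048.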
